A study of Mus musculus with 16 samples.

Results

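Arrdc3, Itgb1, Ezr, Kif2a, Irs1, Foxo1, Foxo3, Adcy6, Zeb1 and Bmi1 are 10 mouse genes whose messages other studies, in several tissues, have reported as targets of miR-183, miR-96 or miR-182. Their mRNA levels were followed in inner ear tissue of mice that overexpress these 3 miRNAs. Each gene was read through the probesets that the platform table ties to a single gene symbol, and the probeset with the highest mean over 16 arrays stood for the gene. The 10 genes were taken from 19937 genes with such a probeset, on an array of 34760 probesets. All 10 had a probeset, only Irs1 had more than 1, and the signal of each was above the array median on all 16 arrays.

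The mice were FVB/NCrl, either homozygotes for the transgene Tg(GFAP-Mir183,Mir96,Mir182)1MDW (Tg1MDW/1MDW, hereafter Tg/Tg), in which the human GFAP promoter drives the miRNA cluster, or wild-type littermates (WT). The study stained miR-182 in supporting cells of the organ of Corti, Schwann cells and spiral limbus cells of Tg/Tg animals at P18. Its RT-PCR of the 3 miRNAs in cochlea, higher in Tg/Tg, was also at P18. At earlier ages, P5 among them, it could not find a clear difference in cluster expression between the genotypes by in situ staining. On its arrays the probesets of the 3 miRNA genes were higher in Tg/Tg at P5 and at P18. The Tg/Tg animals came from a single founder line. RNA was taken from the organ of Corti at postnatal day 5 (P5-OC) on 5 Tg/Tg and 5 WT arrays, and from the cochlea at postnatal day 18 (P18-cochlea) on 3 Tg/Tg and 3 WT arrays. The titles call them biological replicates, but neither the sex nor the number of animals behind an array is given in the sources used here. Between the 2 stages the age and the dissected tissue changed together and cannot be told apart.

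A miRNA guides a silencing complex to mRNAs that pair with its seed, bases 2 to 8 counted from the 5′ end, and the bound message is then translated less and often degraded. Arrays read only the second of these effects, so a target repressed through translation alone keeps its signal. The miR-183 cluster is transcribed as 1 precursor in sensory cells, including the hair cells of the inner ear, and its members have closely related seeds. The mature mouse sequences from RefSeq (build GRCm38.p6, minus strand) are shown with the seed, the part that pairs with target messages, in capitals. They lie at chr6:30169711-30169732 for miR-183, chr6:30169506-30169528 for miR-96 and chr6:30165962-30165986 for miR-182.
mmu-miR-183-5p: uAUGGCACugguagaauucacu
mmu-miR-96-5p: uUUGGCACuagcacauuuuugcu
mmu-miR-182-5p: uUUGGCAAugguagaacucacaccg
The seeds of miR-96 and miR-182 differed by 1 substitution, C8A, and those of miR-96 and miR-183 also by 1, U2A. miR-182 and miR-183 differed at both positions, U2A and A8C. The complementary 7-base sites are GUGCCAU for miR-183, GUGCCAA for miR-96 and UUGCCAA for miR-182. Whether the 10 messages carry these sites was not analysed here.

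The transgene was read first as a check of the titles. The Mir182 probeset lay between 7.77 and 8.64 on the 5 Tg/Tg P5-OC arrays, against 4.25 to 5.46 on the 5 WT arrays, and at P18 between 7.95 and 7.98 on Tg/Tg arrays, against 3.83 to 3.92 on WT arrays (log2 signal). The 3 other transgene probesets were also higher in Tg/Tg, Mir96 by 3.40 at P5 and 3.36 at P18, Mir183 by 3.31 and 3.47, and Prm1, part of the construct, by 3.68 and 2.50 (log2). The platform table and the study's own listing name the Mir96 and Mir182 probesets the other way round, and the platform table was followed, so these 2 names may be exchanged. Every array thus carried the transgene signal its title calls for. Of 17 hair cell markers, 12 in Tg/Tg and 14 in WT were above the array median on every P5 array, and 9 in Tg/Tg and 11 in WT on every P18 array. Myo7a, Pou4f3, Otof and Slc26a5 were above it in all 4 groups, Tmc1 and Strc at P5 only, and all 15 supporting cell markers were above it in all 4 groups. At P5 the mean of the 17 Schwann cell and myelin markers was lower in Tg/Tg (8.17 to 8.64) than in WT (9.61 to 9.76). Kdm5d, Uty and Eif2s3y, which lie on the Y chromosome, averaged 8.86 on Tg/Tg replicate 1 and 3.90 to 4.06 on the 4 other Tg/Tg arrays at P5, against 3.95 on WT replicate 1 and 8.61 to 8.96 on the 4 other WT arrays. At P18 that mean was 7.65 to 7.66 in Tg/Tg and 7.22 to 7.34 in WT, between both P5 levels. Skeletal muscle markers averaged 8.12 to 8.20 in Tg/Tg P18-cochlea, against 6.14 to 6.15 in WT. Cerebellar granule neuron markers averaged 6.32 to 6.34 in Tg/Tg P18-cochlea, against 6.93 to 7.01 in WT, with 5 of 11 called lower. The part of these differences in the P18 results was not tested. Pearson correlations between arrays of 1 stage ran from 0.973 to 0.992 at P5 and from 0.990 to 0.995 at P18.

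In the P5-OC, 3 of the 10 genes were lower in Tg/Tg than in WT and none was higher. Most P5 Tg/Tg arrays were of low and most WT arrays of high Y-linked level, so genotype and this level cannot be fully told apart. With that level as a covariate, 0 of the 10 were called. Arrdc3, which brings membrane receptors to ubiquitin ligases, Itgb1, the beta subunit shared by many matrix receptors, and Ezr, which ties the membrane to actin, each fell to 0.706 to 0.755 times the WT signal. The other 7 genes did not pass the test, although all 10 changes were below 0, as were 53.3% of all probesets. Of all probesets, 0.549% were called lower and 0.0604% higher at this stage (limma, Benjamini-Hochberg adjusted p under 0.05 over 34760 probesets, no fold limit). The median change was -0.18 over the 10 genes and -0.01 over all probesets (log2). In a fit of the brighter 50% of probesets alone, which held all 10 genes, the median over probesets was -0.06. There 322 of 17380 probesets were called lower and 38 higher, and the same 3 genes were called. In the P18-cochlea none of the 10 was called, where 0.0604% of probesets were called lower and 0.383% higher.

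**Figure D1:**
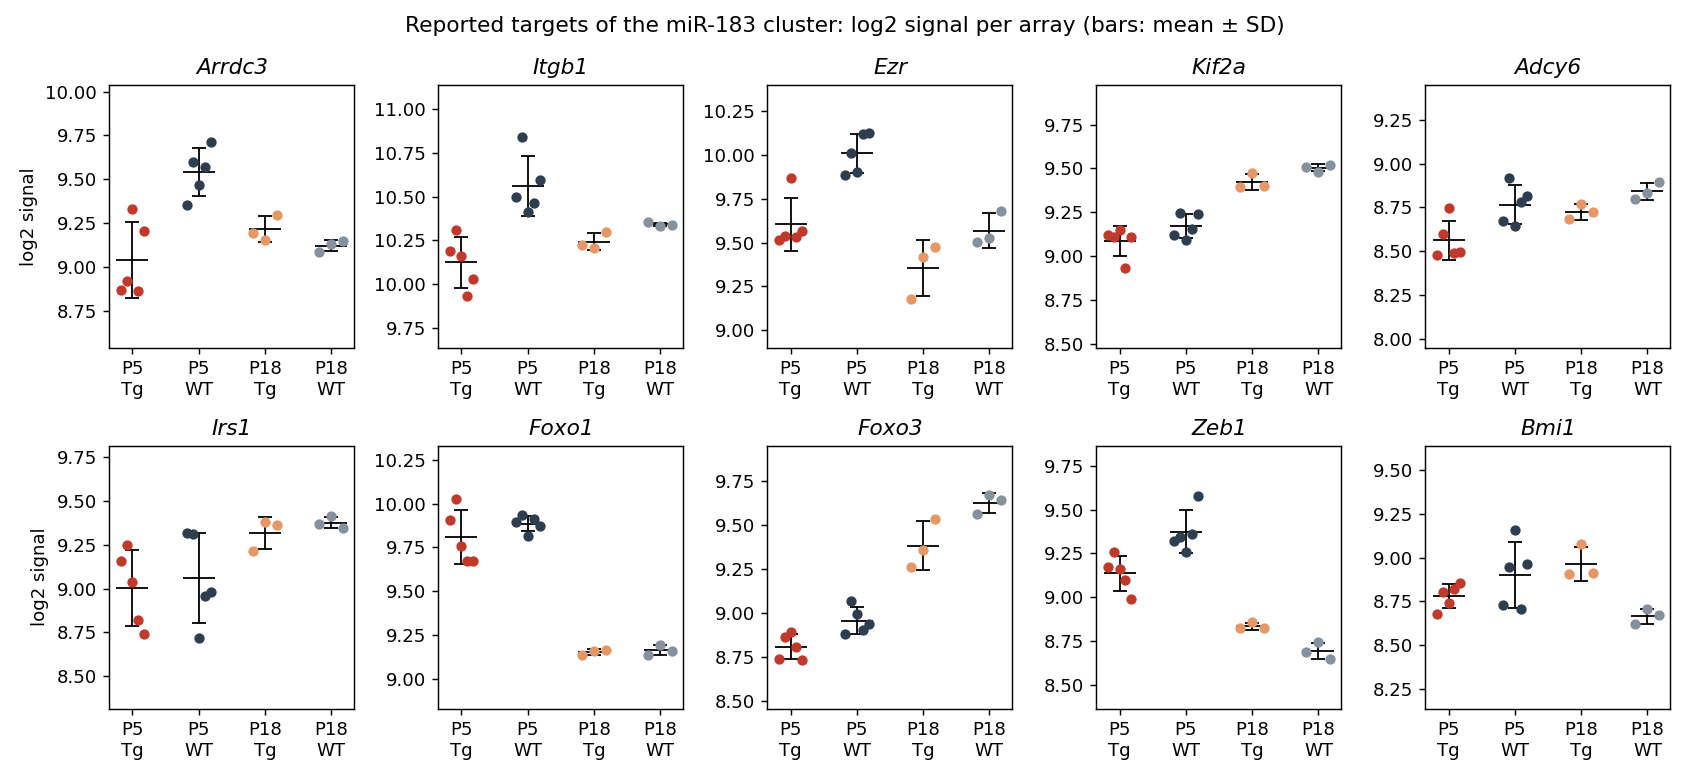
Log2 signal of each of the 10 genes (1 panel per gene, vertical axis) on every array, with Tg/Tg left of WT at P5 and then at P18. Points are arrays and bars are group means with SD (n = 5 at P5, n = 3 at P18). Arrdc3, Itgb1, Ezr and Zeb1 have every P5 Tg/Tg array below every P5 WT array.

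Itgb1 and Ezr act where the cell membrane meets the matrix and the actin cortex. Itgb1 signals in Tg/Tg P5-OC were 10.19, 10.31, 10.16, 9.94 and 10.03 for replicates 1 to 5, against 10.50, 10.84, 10.41, 10.46 and 10.60 in WT. Every Tg/Tg array was below every WT array. The change was -0.43 ± 0.09 (log2, SE; 0.740-fold, adjusted p = 0.028, n = 5 each). At P18 Itgb1 signals were 10.22, 10.21 and 10.30 in Tg/Tg, against 10.35, 10.33 and 10.34 in WT. The P18 groups again did not overlap, but the change of -0.10 was not called (95% interval -0.34 to 0.14, adjusted p = 0.89).

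Ezr signals in Tg/Tg P5-OC were 9.51, 9.54, 9.87, 9.53 and 9.57, against 9.89, 10.01, 9.91, 10.12 and 10.12 in WT. Replicate 3 stood 0.30 above the next Tg/Tg array and just below the lowest WT array, and the groups did not overlap. The change was -0.41 ± 0.09 (0.755-fold, adjusted p = 0.047), close to the threshold. At P18 Ezr signals were 9.18, 9.42 and 9.48 in Tg/Tg, against 9.50, 9.53 and 9.68 in WT. These groups were also separate, with a change of -0.21 that was not called (95% interval -0.45 to 0.03, adjusted p = 0.64).

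Arrdc3 belongs to the alpha-arrestins. Its signals in Tg/Tg P5-OC were 8.87, 8.92, 9.33, 8.86 and 9.20, against 9.35, 9.60, 9.47, 9.57 and 9.71 in WT. Tg/Tg replicates 3 and 5 lay above the other Tg/Tg arrays, and replicate 3 was just under the lowest WT array. The change, -0.50 ± 0.10 (0.706-fold, adjusted p = 0.022), was the largest of the 10 at P5. At P18 Arrdc3 signals were 9.20, 9.15 and 9.30 in Tg/Tg, against 9.08, 9.13 and 9.14 in WT. All 3 Tg/Tg arrays were then above WT, with a change of 0.10 that was not called (95% interval -0.17 to 0.36, adjusted p = 0.92).

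Kif2a, a kinesin that takes microtubules apart at their ends, differed little. Its P5 signals were 9.12, 9.11, 9.15, 8.93 and 9.11 in Tg/Tg, against 9.12, 9.24, 9.09, 9.16 and 9.24 in WT. The groups overlapped, replicate 4 being the lowest Tg/Tg array, and the change was -0.09 (95% interval -0.21 to 0.04, adjusted p = 0.46). At P18 Kif2a signals were 9.39, 9.48 and 9.40 in Tg/Tg, against 9.51, 9.48 and 9.52 in WT. The highest Tg/Tg array was marginally below the lowest WT array, and the change of -0.08 was not called (95% interval -0.24 to 0.08, adjusted p = 0.86).

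Other marker levels differed between the same P5 arrays. Among the 5 Tg/Tg P5-OC arrays, Itgb1 and the mean of the Schwann cell markers had the same order (Pearson r = 0.96, n = 5), while Arrdc3 (r = -0.25) and Ezr (r = -0.06) did not follow it. Of the genes that were not called, Irs1 (r = 0.98), Foxo1 (r = 0.96) and Zeb1 (r = 0.87) followed it about as closely as Itgb1. The Schwann cell mean was also higher on Tg/Tg replicates 1 and 2 (8.57 and 8.64) than on 3 to 5 (8.41, 8.17 and 8.21). Mesenchyme and otic fibrocyte markers had the same division, 11.56 and 11.60 against 11.22, 11.27 and 11.25. The part of this division in the correlations was not tested. Spiral ganglion neuron markers averaged 8.22 to 8.76 in Tg/Tg and 8.52 to 9.02 in WT, and 11 of 13 changes were below 0 (median -0.34). Stria vascularis markers averaged 7.39 to 8.13 in Tg/Tg and 7.25 to 8.19 in WT, with a median change of 0.28. No gene of either list was called, 5 of each were at an unadjusted p under 0.05, and both list means overlapped between the genotypes. The part of these marker differences in the 3 calls was not tested, and fewer cells of a type and less RNA per cell cannot be told apart in these tissues. Within the P5 arrays of low Y-linked level (4 Tg/Tg, 1 WT) Arrdc3 changed by -0.27, Itgb1 by -0.39 and Ezr by -0.26. Within those of high level (1 Tg/Tg, 4 WT) Arrdc3 changed by -0.72, Itgb1 by -0.39 and Ezr by -0.53. Each of these subsets has a single array in 1 arm and was chosen after the data were seen, so the values are given without a test. When the Y-linked mean entered the fit as a covariate, Arrdc3 changed by -0.49 (adjusted p = 0.25), Itgb1 by -0.38 (adjusted p = 0.39) and Ezr by -0.39 (adjusted p = 0.39). Without Tg/Tg replicate 1, Tg/Tg replicate 4 or WT replicate 5, 0 of the 10 genes were called.

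**Figure D2:**
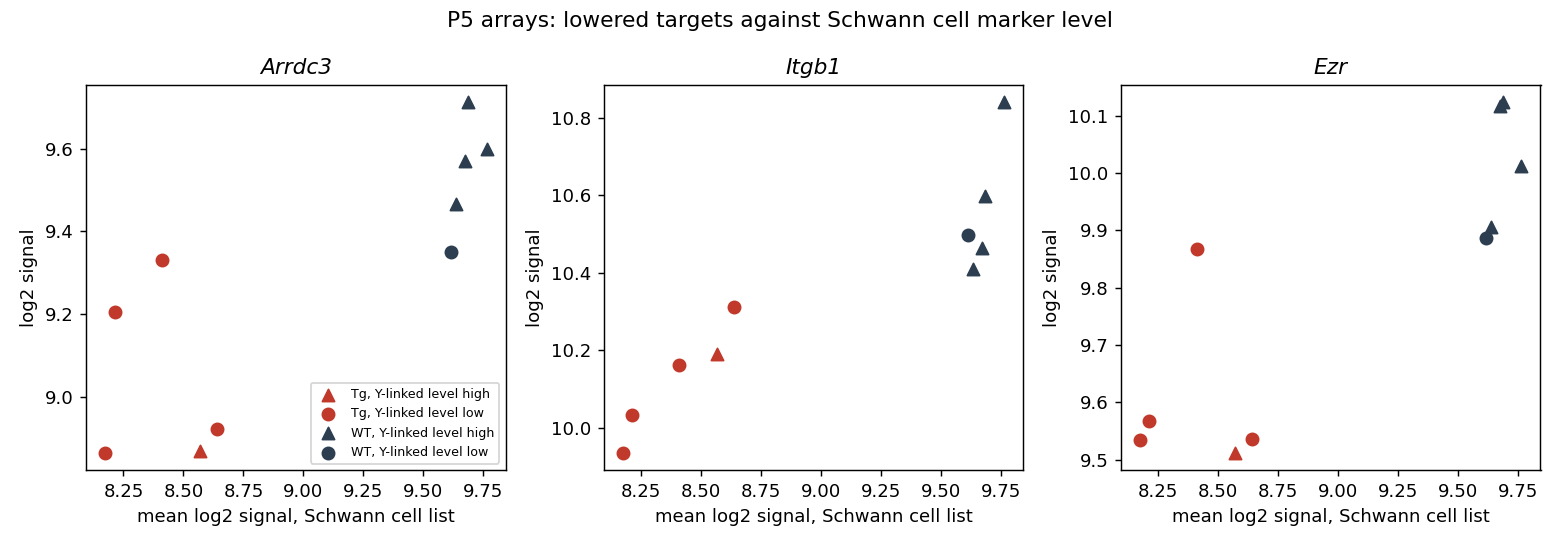
Log2 signal of Arrdc3, Itgb1 and Ezr (vertical axes) on the 10 P5-OC arrays, against the mean log2 signal of 17 Schwann cell and myelin markers on the same array (horizontal axis). Points are arrays, with triangles for a high and circles for a low mean of the Y-linked genes. Both genotypes are separate on the horizontal axis, with Tg/Tg at 8.17 to 8.64 and WT at 9.61 to 9.76.

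Irs1, Foxo1 and Foxo3 sit on 1 signalling route. Irs1 is the adaptor that couples insulin and IGF1 receptors to PI3 kinase, and Foxo1 and Foxo3 are transcription factors that the downstream kinase Akt keeps out of the nucleus. Irs1 signals in Tg/Tg P5-OC were 9.16, 9.25, 9.04, 8.82 and 8.74, against 9.32, 9.31, 8.72, 8.96 and 8.98 in WT. In both genotypes replicates 1 and 2 were above replicates 3 to 5, and the Tg/Tg and WT arrays covered much the same range. The change was -0.06 (95% interval -0.31 to 0.20, adjusted p = 0.83), with -0.11 within replicates 1 and 2 and -0.02 within replicates 3 to 5. Over all probesets, deviations from the group means had a median correlation of 0.09 between P5 arrays of the same one of these divisions and -0.22 between arrays of different ones. At P18 Irs1 signals were 9.21, 9.38 and 9.36 in Tg/Tg, against 9.37, 9.41 and 9.35 in WT. The groups overlapped again, with a change of -0.06 (95% interval -0.39 to 0.27, adjusted p = 0.97).

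Foxo1 signals in Tg/Tg P5-OC were 9.90, 10.03, 9.76, 9.67 and 9.67, against 9.89, 9.93, 9.82, 9.91 and 9.87 in WT. Tg/Tg arrays lay on both sides of the narrow WT range, and the change of -0.08 was not called (95% interval -0.22 to 0.07, adjusted p = 0.58). At P18 Foxo1 signals were 9.13, 9.16 and 9.17 in Tg/Tg, against 9.13, 9.19 and 9.16 in WT. The change there was -0.01, with a 95% interval of -0.20 to 0.18 (adjusted p = 0.99).

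Foxo3 signals in Tg/Tg P5-OC were 8.74, 8.86, 8.89, 8.80 and 8.73, against 8.88, 9.07, 8.99, 8.90 and 8.94 in WT. Only Tg/Tg replicate 3 reached into the WT range, and the change of -0.15 was not called (95% interval -0.29 to -0.01, adjusted p = 0.28). At P18 Foxo3 signals were 9.26, 9.36 and 9.53 in Tg/Tg, against 9.57, 9.67 and 9.65 in WT. Every Tg/Tg array was below every WT array. The change of -0.24 was not called either (0.844-fold, 95% interval -0.42 to -0.06, adjusted p = 0.35). Foxo3 was the only gene of the 10 whose interval lay below 0 at both stages.

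Adcy6, an adenylyl cyclase that makes cyclic AMP downstream of G protein-coupled receptors, gave P5 signals of 8.48, 8.60, 8.74, 8.49 and 8.50 in Tg/Tg, against 8.67, 8.92, 8.65, 8.78 and 8.81 in WT. All Tg/Tg arrays but replicate 3 were below all WT arrays, and the change of -0.20 was not called (95% interval -0.35 to -0.06, adjusted p = 0.21). At P18 Adcy6 signals were 8.68, 8.77 and 8.72 in Tg/Tg, against 8.80, 8.83 and 8.90 in WT. The groups did not overlap, and the change was -0.12 (95% interval -0.31 to 0.07, adjusted p = 0.81).

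Zeb1 and Bmi1 act in the nucleus. Zeb1 represses epithelial genes, and Bmi1 is a subunit of polycomb repressive complex 1, which marks histone H2A and keeps genes silent. Zeb1 signals in Tg/Tg P5-OC were 9.17, 9.26, 9.16, 9.10 and 8.99, against 9.32, 9.34, 9.26, 9.36 and 9.58 in WT. Although the groups did not overlap, the change of -0.24 was not called (0.849-fold, 95% interval -0.38 to -0.09, adjusted p = 0.16). At P18 Zeb1 signals were 8.82, 8.86 and 8.82 in Tg/Tg, against 8.69, 8.74 and 8.65 in WT. All 3 Tg/Tg arrays were then above WT, with a change of 0.14 (95% interval -0.05 to 0.33, adjusted p = 0.73).

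Bmi1 signals in Tg/Tg P5-OC were 8.68, 8.80, 8.74, 8.82 and 8.86, against 8.73, 8.95, 9.16, 8.70 and 8.96 in WT. The groups overlapped, and the change was -0.12 (95% interval -0.30 to 0.05, adjusted p = 0.46). At P18 Bmi1 signals were 8.91, 9.08 and 8.91 in Tg/Tg, against 8.62, 8.70 and 8.67 in WT. Every Tg/Tg array was above every WT array. The change of 0.30 was the largest of the 10 at P18 and was not called (1.23-fold, 95% interval 0.07 to 0.53, adjusted p = 0.36).

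Counted together, 4 of the 10 genes (Arrdc3, Itgb1, Ezr and Zeb1) had all P5 Tg/Tg arrays below all WT arrays, and none had all above; of all probesets, 1.29% had all below and 0.383% all above. At P18, 5 of the 10 (Itgb1, Ezr, Foxo3, Adcy6 and Kif2a) had all Tg/Tg arrays below WT and 3 (Arrdc3, Zeb1 and Bmi1) had all above, where 13.6% and 14% of all probesets did. At an unadjusted p under 0.05, 6 of the 10 were lower at P5 (Arrdc3, Itgb1, Ezr, Adcy6, Foxo3 and Zeb1), against 9.09% of all probesets. At P18 only Foxo3 was lower and only Bmi1 higher at that level, against 3.42% and 5.35% of all probesets, and 7 of the 10 changes were below 0, against 55.4%. The mean over the 10 genes was 9.10 to 9.28 on Tg/Tg P5-OC arrays, against 9.35 to 9.52 on WT arrays, and 9.20 to 9.30 on Tg/Tg P18-cochlea arrays, against 9.26 to 9.31 on WT arrays. The P5 groups were thus separate in this mean, which holds the called genes, and the P18 groups overlapped. The mean of 18 genes of the FOXO family or regulated by FOXO factors was also separate at P5 (7.80 to 7.89 against 7.93 to 8.04). The mean of 18 further genes reported or predicted as targets overlapped at P5. At P18 it was higher in Tg/Tg (8.41 to 8.45) than in WT (8.31 to 8.33).

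**Figure D3:**
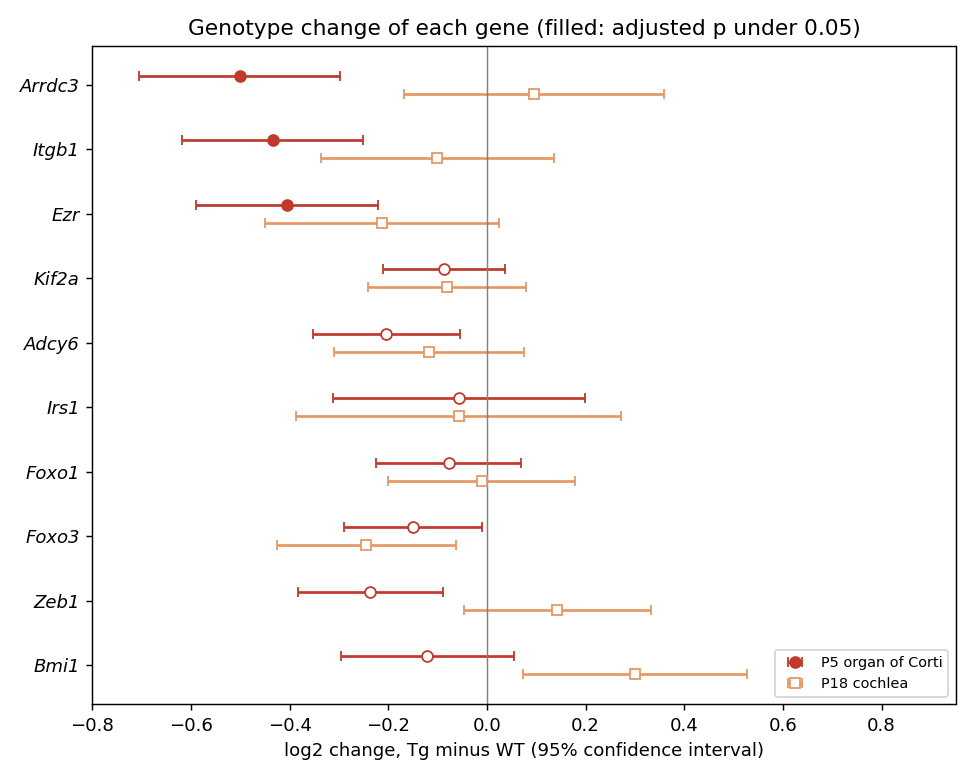
Change between Tg/Tg and WT (log2, horizontal axis) for each of the 10 genes at P5 and at P18, with 95% intervals from limma as bars and filled points where the change was called. All 10 changes are below 0 at P5, where Arrdc3 (-0.50), Itgb1 (-0.43) and Ezr (-0.41) were called, and 7 are below 0 at P18, where none was called.

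Whether the genotype change differed between P18 and P5 was asked directly. No difference was called for any of the 10 genes, in a contrast where 0.596% of probesets were called. At an unadjusted p under 0.05, 4 of the 10 had a difference above 0, against 8.12% of all probesets. Arrdc3 had the largest difference, 0.60 (P18 change minus P5 change, log2, 95% interval 0.26 to 0.93, adjusted p = 0.12), followed by Bmi1 with 0.42 (0.13 to 0.71, adjusted p = 0.20), Zeb1 with 0.38 (0.14 to 0.62, adjusted p = 0.16) and Itgb1 with 0.33 (0.04 to 0.63, adjusted p = 0.30). For the other 6 genes the interval of the difference held 0, from -0.10 for Foxo3 to 0.19 for Ezr. The loss of the 3 P5 calls at P18 is therefore not shown to be a difference between the stages. At P18 there were 3 arrays in each group, and the standard errors of the 10 changes were 0.08 to 0.15, against 0.06 to 0.12 at P5. Both used 1 estimate of spread per probeset from both stages, so they differ only through the number of arrays. Itgb1 had SDs of 0.05 (Tg/Tg) and 0.01 (WT) at P18, against 0.15 and 0.17 at P5. Ezr had 0.16 and 0.10, against 0.15 and 0.11. In separate fits per age the P5 standard errors of Arrdc3 and Itgb1 were 0.11 and 0.10, against 0.10 and 0.09. None of the 10 genes was then called at either stage.

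In WT tissue alone, 6 of the 10 genes differed between the P18-cochlea and the P5-OC, in a contrast where 30.2% of all probesets were called lower and 19.8% higher. Foxo1 averaged 9.16 ± 0.03 at P18 (SD, n = 3) and 9.89 ± 0.04 at P5 (n = 5), a change of -0.72 (adjusted p = 1.5e-06). Zeb1 was lower by a similar amount, with 8.69 ± 0.05 at P18 and 9.37 ± 0.12 at P5 (-0.68, adjusted p = 2.8e-06). Foxo3, the relative of Foxo1, went the other way, with 9.63 ± 0.06 at P18 and 8.96 ± 0.08 at P5 (0.67, adjusted p = 1.9e-06). Kif2a was also higher at P18 (0.33, adjusted p = 0.00062), and Arrdc3 (-0.42, adjusted p = 0.0049) and Ezr (-0.44, adjusted p = 0.0016) were lower. Itgb1 (-0.22), Bmi1 (-0.24), Irs1 (0.32) and Adcy6 (0.08) were not called. With P5 replicates 1 and 2 against 3 to 5 as a block, Itgb1 (adjusted p = 0.038), Irs1 (adjusted p = 0.0048) and Bmi1 (adjusted p = 0.047) were called too, 9 of the 10 in all. Of 34760 probesets, 10897 were then called lower and 7165 higher, against 10491 and 6881 without the block. With each array centred on its median, which moved the median change of all probesets in this contrast to 0.13 from -0.06, Arrdc3 (-0.22, adjusted p = 0.10) and Ezr (-0.24, adjusted p = 0.064) were no longer called, while Irs1 (0.51) and Adcy6 (0.27) were called higher. The changes of Foxo1, Zeb1, Foxo3 and Kif2a kept their direction and their calls under this centring. It called 7419 of all probesets lower and 11935 higher.

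Genes that work with the 10 were read from lists of partners and pathways. Among 19 alpha integrin partners and adaptors of Itgb1, Itga6 was lower and Itga4 higher in Tg/Tg P5-OC and the other 17 were not called, with a list median of -0.10. Itga6, which pairs with Itgb1 as a laminin receptor, averaged 10.25 ± 0.08 in Tg/Tg and 11.05 ± 0.20 in WT (SD, n = 5 each; -0.80, adjusted p = 9.3e-05). Itga4, the alpha subunit of a fibronectin and VCAM1 receptor, averaged 7.99 ± 0.19 in Tg/Tg and 7.52 ± 0.11 in WT (0.47, adjusted p = 0.019). At P18 the Itga6 change was not called (0.13, adjusted p = 0.85), and the difference between stages was called (0.93, adjusted p = 0.0029).

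Among 13 relatives and partners of ezrin, Stk10, a kinase that phosphorylates ezrin-family proteins, was lower at P5 and the other 12 were not called. It averaged 7.05 ± 0.20 in Tg/Tg and 7.97 ± 0.18 in WT (-0.92, adjusted p = 0.00016). The paralogs of ezrin did not pass, Msn with -0.54 (adjusted p = 0.056) and Rdx with -0.19 (adjusted p = 0.14). None of this list was called at P18. Itga6 and Stk10, like the Schwann cell markers, were lower at P5 in Tg/Tg, and the part of that marker difference in their changes was not tested.

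Of 18 further genes reported or predicted as targets of the cluster, none was called in the P5-OC, with 15 of 18 changes below 0, a median of -0.09 and 5 genes at an unadjusted p under 0.05 (16.4% of all probesets were). At P18 only Cacna2d1, an auxiliary subunit of voltage-gated calcium channels, was called. It was higher, with 8.86 ± 0.04 in Tg/Tg and 8.30 ± 0.14 in WT (SD, n = 3 each; 0.55, adjusted p = 0.013), beside the muscle markers that were higher in the same arrays, and the part of muscle RNA in this was not tested. The difference between stages was called for Cacna2d1 (0.61, adjusted p = 0.033) and for Mitf, a transcription factor of melanocytes (0.75, adjusted p = 0.046), which was not called at P5 (-0.43, adjusted p = 0.065) or at P18 (0.32, adjusted p = 0.44). Genes of this list that act in supporting and hair cell fate were not called at P5, namely Sox2 with -0.06 (95% interval -0.27 to 0.14), Notch1 with -0.06 (-0.27 to 0.16), Jag1 with -0.10 (-0.59 to 0.38) and Hes1 with -0.00 (-0.26 to 0.26).

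In the 7 other lists no gene was called at P5 or at P18. They held 21 genes of the insulin and PI3 kinase pathway, 18 of the FOXO family and genes that FOXO factors regulate, 16 adenylyl cyclases and cAMP effectors, 13 of microtubule turnover, 12 of the arrestin family and its ligases, 17 of ZEB factors and epithelial state, and 16 of polycomb repressive complex 1. Their median changes at P5 ran from -0.13 for the FOXO list to -0.01 for the ZEB list, and at P18 from -0.05 for the cAMP list to 0.08 for the insulin list. Below 0 at P5 were 15 of 16 changes in the cAMP list and 18 of 21 in the insulin list. The ZEB and polycomb lists had 10 of 17 and 10 of 16. At an unadjusted p under 0.05 the share at P5 ran from 2 of 17 genes in the ZEB list to 8 of 18 in the FOXO list. At P18 it ran from 1 of 18 in the FOXO list to 5 of 12 in the arrestin list. Of all probesets, 16.4% passed at P5 and 8.77% at P18. In the FOXO list Sirt1, a deacetylase of FOXO factors, had the lowest adjusted p named here, 0.065 at P5 with a change of -0.34.

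The genes most alike to the 3 called ones over the 10 P5-OC arrays were ranked by Pearson correlation, a description that holds the genotype difference in it. Arrdc3 was most alike to Spag7 (r = 0.98), Rala (0.97) and Mlkl (0.97). Itgb1 was most alike to Utrn (0.99), Sema6d (0.98) and Plekha1 (0.98), and Ezr to Filip1 (0.98), Frmd3 (0.97) and Kif1a (0.97). Among the 10 genes themselves, Arrdc3 and Ezr had r = 0.96. Both were at their highest P5 Tg/Tg value on replicate 3, as were Foxo3, Adcy6 and Kif2a. In the fit with array weights that array had the lowest weight of all, 0.32.

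**Figure D4:**
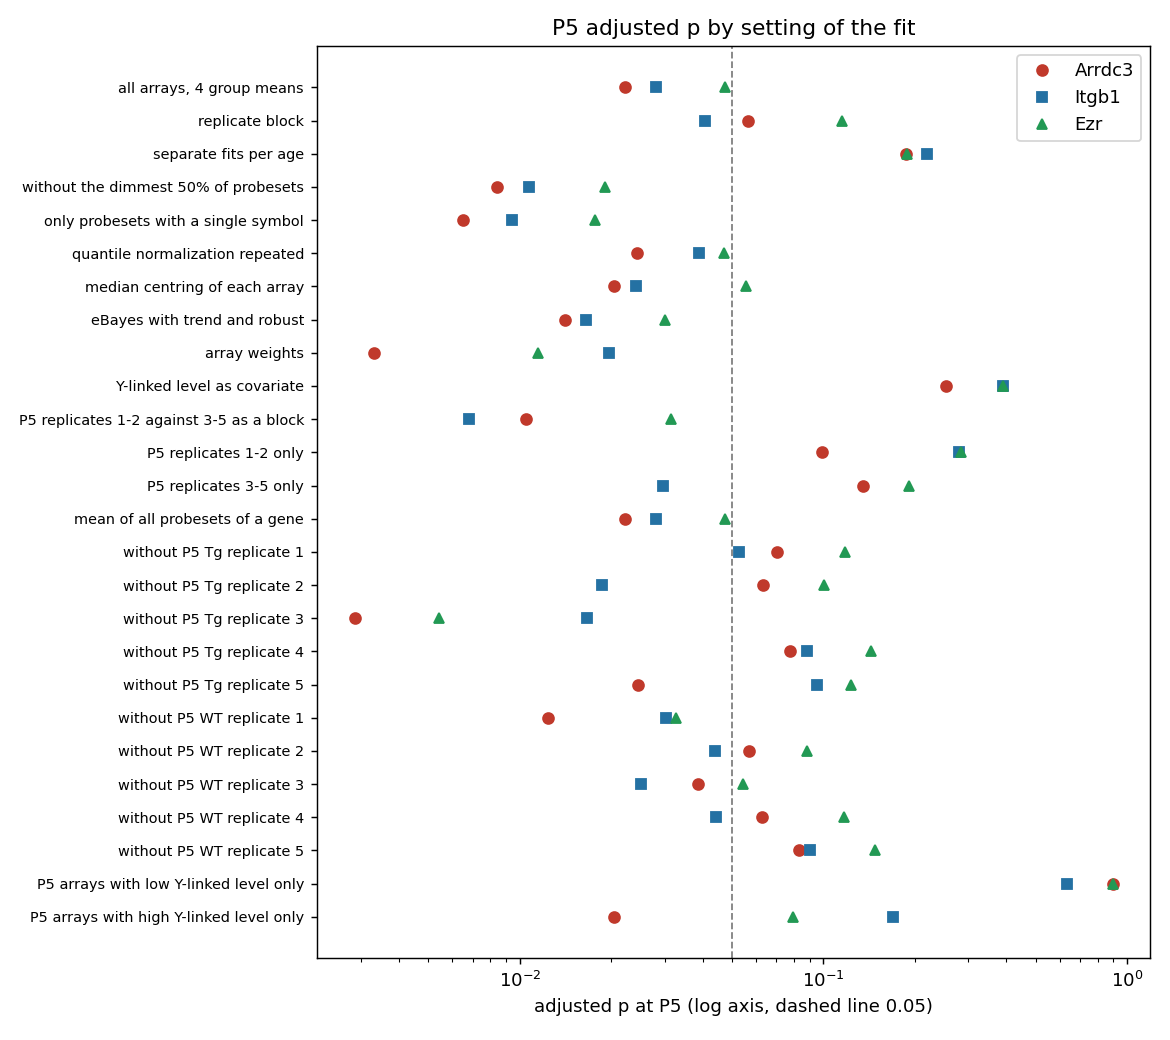
Adjusted p of the P5 change between Tg/Tg and WT (horizontal axis, log scale) for Arrdc3, Itgb1 and Ezr, with 1 row for each way of fitting the data or array left out and a dashed line at 0.05. The points of all 3 genes lie left of the line in the fit of all 16 arrays and to its right in separate fits per age, with the Y-linked covariate and without Tg/Tg replicate 1, Tg/Tg replicate 4 or WT replicate 5.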

How the data were processed

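RNA from organ of Corti or cochlea was hybridised to Affymetrix MoGene 1.0 arrays. The values used are log2 signals, normalized and deposited by the authors in a series table of 34760 probesets on 16 arrays; the normalization method is not given in the sources used here, and the authors name limma for their testing. Arrays were grouped by title, because the age, tissue and genotype fields disagree with the titles. Platform annotation gave 1 symbol for 21640 probesets, several for 1321 and none for 11799. The authors' own tables of changes were not used.

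Group means were fitted to all probesets with limma 3.58.1 in R 4.3.3 (lmFit, eBayes). Its two-sided p-values got a Benjamini-Hochberg adjustment over all probesets within a contrast. The contrasts were Tg/Tg minus WT at P5, at P18, the difference of both, and P18 minus P5 in WT. A gene was called at adjusted p under 0.05. All 10 genes were named, and of each partner list every gene called in the P5 or P18 genotype contrast. Members and lists were chosen with earlier results of these data known, so they give no independent support. Sequences came from RefSeq tables. Probesets with other paralogous targets were not re-annotated. On simulated data in which 200 of 34760 probesets were changed, for the P5 contrast, the fit found 22% of changes of 1.25-fold, 54% of 1.5-fold and 88% of 2-fold, and for P18 2%, 48% and 90%. The simulated noise was independent between arrays and had the same spread at both stages. It lacked the division and the unequal quality of the real P5 arrays, so these rates need not hold for either stage. The number of arrays limits the precision. Alternatives tried were separate fits for each age, the replicate number as a block, filters, renormalization, array weights, a Y-linked covariate, subsets of the P5 arrays, probeset averaging and leaving out each array.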

Additional observations from a re-analysis of the deposited data

Results flagged for a closer look

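Ezr on P5-OC Tg/Tg replicate 3 was 9.87, far above the 4 other Tg/Tg arrays (9.51 to 9.57), with a gap of 0.843 of the group's range. Without this array Ezr changed by -0.47 at P5. Kif2a on P5-OC Tg/Tg replicate 4 was 8.93, below the 4 other Tg/Tg arrays (9.11 to 9.15), with a gap of 0.822 of the range. The gap looked for was one above 0.710, which chance gives in about 1 of 20 groups, and 20 groups of 5 arrays were looked at.

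Arrdc3 and Zeb1 were on opposite sides of WT at the 2 stages, although only the P5 change of Arrdc3 was called. Every P5 Tg/Tg array was below every WT array and every P18 Tg/Tg array was above every WT array. The P18 change minus the P5 change was 0.60 for Arrdc3 (adjusted p = 0.12) and 0.38 for Zeb1 (adjusted p = 0.16), and neither passed the limma test of the difference over all probesets. With array weights both did (adjusted p = 0.0063 for Arrdc3 and 0.021 for Zeb1). That weighted fit called 1372 of all probesets lower and 1862 higher, against 19 and 188 without weights. The P18 changes on which this rests were small, 0.10 for Arrdc3 and 0.14 for Zeb1.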

How the results depend on the processing

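The changes of Arrdc3, Itgb1 and Ezr at P5 were below 0 under all alternatives run, but the calls were not kept under all. Of the 10 genes, 3 were called at P5; this became 1 with the replicate block (Itgb1), 0 in separate fits per age, 0 with the Y-linked covariate, 0 in P5 replicates 1-2 alone, 1 in replicates 3-5 alone (Itgb1), 0 on low-Y arrays and 1 on high-Y arrays (Arrdc3), and 0 to 4 with an array left out. The count was 0 without Tg/Tg replicate 1, Tg/Tg replicate 4 or WT replicate 5. It was 1 without Tg/Tg replicate 2, WT replicate 2 or WT replicate 4 (Itgb1 in each) or Tg/Tg replicate 5 (Arrdc3), and 4 without Tg/Tg replicate 3, which added Adcy6. At P18, where 0 were called, array weights called 2 (Foxo3 and Bmi1), and leaving out an array gave 0 to 0. Of all probesets, array weights called 720 lower and 1459 higher at P18, against 21 and 133 without weights. For the difference between stages, also 0, array weights called 3 (Arrdc3, Zeb1 and Bmi1), and leaving out an array gave 0 to 1. In this contrast array weights called 1372 of all probesets lower and 1862 higher, against 19 and 188 without weights. In WT, P18 against P5, the count of 6 stayed between 6 and 8 with an array left out. It was 9 with P5 replicates 1-2 against 3-5 as a block, where 10897 probesets were called lower and 7165 higher. The replicate numbers do not pair the samples throughout: same-numbered deviations correlated at -0.22 to 0.36, and in 3 of 8 pairs an array correlated best with its own number. These were P5 replicate 1 (0.29, against at most 0.10 with another number), P5 replicate 2 (0.36, against 0.07) and P18 replicate 1 (0.07, against -0.03). P5 replicates 1 and 2 may therefore be paired. The replicate block called 120 probesets lower and 19 higher at P5, against 191 and 21, with adjusted p = 0.056 for Arrdc3 and 0.12 for Ezr. Without Tg/Tg replicate 3 the probesets called at P5 were 1463 lower and 1444 higher, and with array weights 991 and 724, against 191 and 21; the cause was not tested.

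Directions turned only for changes that were not called. At P5 these were Foxo1 (0.052 in replicates 1-2, 0.022 on high-Y arrays), Irs1 (0.0062 after quantile normalization, 0.0080 with array weights, 5.00e-05 for the mean of its probesets, 0.16 on high-Y arrays, -0.142 to 0.00806 with an array left out) and Bmi1 (0.074 on low-Y arrays). For the difference between stages they were Foxo1 (-0.00481 after quantile normalization, -0.062 in replicates 1-2, -0.032 on high-Y arrays), Irs1 (0.024 after median centring, 0.037 with the Y-linked covariate, 0.055 in replicates 1-2, 0.30 on low-Y arrays, -0.066 to 0.084 with an array left out), Adcy6 (-0.030 on low-Y arrays) and Kif2a (-0.075 after quantile normalization, -0.031 with the Y-linked covariate, -0.0125 in replicates 1-2, -0.033 on low-Y and -0.019 on high-Y arrays, -0.031 to 0.026 with an array left out). Foxo1 at P18 ranged over -0.024 to 0.0049. The low-Y and high-Y subsets were chosen after seeing the data. The block and the separate fits give no WT comparison of stages, and the separate fits no difference between stages.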
